A study of Mus musculus with 18 samples.

Results

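Most of the 38 genes described here encode enzymes of cholesterol synthesis or enzymes that make and modify fatty acids. The others encode the transcription factors that switch both pathways on, proteins that escort or retain these factors, and proteins of sterol transfer and export. All 38 were chosen by name, with no threshold on a measured value, from 50686 genes counted by RNA-seq. The cells were E0771, a mouse line used as a model of triple-negative breast cancer. Gene positions are those of the count files (GRCm38), and all 38 genes are protein-coding. All 38 passed the filter on low counts, Abca1 through the shCdk8-1 libraries alone. The compared E0771 lines were all derived from luciferase-labelled parental cells and each transduced with a retroviral hairpin vector that carries mCherry. The cntrl line carried a hairpin against Renilla luciferase, and the shCdk8-1 and shCdk8-2 lines carried different hairpins against Cdk8, the gene for a kinase of the Mediator complex. Each line was kept for 48 hours in DMSO or in 1 µM Senexin B (SnxB), an inhibitor of CDK8 and its paralog CDK19, with 3 libraries in each of the 6 groups. Each hairpin was present in a single transduced line, so an effect of the hairpin and a property of the line cannot be told apart. Nothing in the sources used here says that the 3 libraries of a group came from separate cultures, so the p-values measure the spread between libraries, which may be technical.

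Cells regulate many of these genes, though not all, through the sterol regulatory element-binding proteins (SREBPs). These are made as membrane proteins of the endoplasmic reticulum from Srebf1 and Srebf2. SCAP escorts them to the Golgi, where proteases release the part that enters the nucleus and binds sterol regulatory elements, and INSIG proteins hold SCAP back when sterols are plentiful. The factor made from Srebf2 mainly drives cholesterol synthesis, and the one made from Srebf1 mainly drives fatty acid synthesis. CDK8 is known to phosphorylate the nuclear form of SREBP1 in liver, which marks it for degradation.

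Promoter windows from RefSeq (GRCm38.p6, 250 bases before to 50 bases after the start site) were found for 30 of the 38 genes. Those shown, chosen with their values known, belong to a gene higher in both shCdk8 lines with the classical sterol element (Hmgcs1), one with a short element (Cyp51), one with neither (Tm7sf2), and one that changed little and has a pair of short elements (Msmo1). Each reads in the direction of the gene, 5′ to 3′. Capitals mark TCACNNCA, a short form of the sterol regulatory element that the longer TCACNCCAC contains, and CCAAT, the site of the cofactor NF-Y, on either strand. In Msmo1 a CCAAT and a TCACNNCA share their last and first base, so their capitals run together.
Hmgcs1, chr13:119690101-119690400, plus strand: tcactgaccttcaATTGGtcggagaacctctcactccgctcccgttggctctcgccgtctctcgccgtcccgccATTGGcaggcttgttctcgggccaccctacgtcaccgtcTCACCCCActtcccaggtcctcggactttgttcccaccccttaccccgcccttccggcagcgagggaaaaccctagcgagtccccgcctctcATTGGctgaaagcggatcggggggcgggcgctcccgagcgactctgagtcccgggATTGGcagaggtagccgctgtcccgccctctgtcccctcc
Cyp51, chr5:4104648-4104947, minus strand: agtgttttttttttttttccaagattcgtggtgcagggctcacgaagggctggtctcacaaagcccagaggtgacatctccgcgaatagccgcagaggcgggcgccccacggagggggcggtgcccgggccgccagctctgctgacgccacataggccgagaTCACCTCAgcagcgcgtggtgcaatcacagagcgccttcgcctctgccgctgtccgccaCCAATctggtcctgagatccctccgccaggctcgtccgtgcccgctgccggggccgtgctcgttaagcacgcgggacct
Tm7sf2, chr19:6067801-6068100, minus strand: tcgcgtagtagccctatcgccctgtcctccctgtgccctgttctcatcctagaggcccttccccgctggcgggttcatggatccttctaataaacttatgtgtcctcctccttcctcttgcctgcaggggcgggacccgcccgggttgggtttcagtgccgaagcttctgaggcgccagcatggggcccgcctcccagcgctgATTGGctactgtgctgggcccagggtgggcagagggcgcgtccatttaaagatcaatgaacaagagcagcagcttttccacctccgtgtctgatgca
Msmo1, chr8:64733529-64733828, minus strand: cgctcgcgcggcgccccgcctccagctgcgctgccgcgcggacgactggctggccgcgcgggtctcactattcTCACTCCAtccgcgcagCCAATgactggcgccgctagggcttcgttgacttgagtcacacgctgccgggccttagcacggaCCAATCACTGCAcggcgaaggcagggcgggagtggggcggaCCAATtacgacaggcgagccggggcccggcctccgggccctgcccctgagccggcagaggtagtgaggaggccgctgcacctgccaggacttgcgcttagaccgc

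The longer element TCACNCCAC occurred in 1 of the 30 genes, Hmgcs1, at position -137 from the RefSeq start site, against 1.44% of 27025 genes with such windows. The Hmgcs1 window ends at chr13:119690400, before the start of the counted gene at 119690462. TCACNNCA occurred in 11 of the 30 genes, against 15.7% of all genes, and lay at -88 in Cyp51 and at -177 and -92 in Msmo1. CCAAT occurred in 23 of the 30 genes, against 41.1% of all genes. In shCdk8-1 cells 8 of the 11 genes with TCACNNCA rose and 1 fell (median log2 fold change 0.24), and 18 of the 19 genes without it rose (median 0.56), where 30.0% of all genes rose and 30.6% fell. In shCdk8-2 cells 5 of the 11 rose and 3 fell (median 0.07), and 14 of the 19 rose (median 0.32), where 28.7% of all genes rose and 29.5% fell. A match describes letters in a 300-base window and does not show that a factor bound there.

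Values below are CPM, each library's counts scaled to a common size after TMM normalization, and fold changes are log2 estimates from edgeR's quasi-likelihood test, with p adjusted over all genes tested by the Benjamini-Hochberg method. A gene is said to have risen or fallen where its adjusted p was under 0.05. The libraries held 16452260 to 22664693 counted reads, and within a group their log2 CPM values correlated at 0.994 to 0.996 across genes. Cdk8 fell in shCdk8-1 cells (-1.39, SE 0.0654) and less in shCdk8-2 cells (-0.54, SE 0.0612). Its paralog Cdk19 rose in both (0.42 and 0.12). The cell identity markers also differed between the lines. Summed over 6 mammary epithelial genes, the level in DMSO was 0.325 to 0.490 CPM in cntrl libraries, with all 6 under 1 CPM, 8.22 to 9.18 CPM in shCdk8-1 libraries and 12.5 to 14.6 CPM in shCdk8-2 libraries, and 5 of the 6 stayed under 1 CPM in both shCdk8 lines, the sixth being Krt8. Epcam, another of these 6 markers, had 2 counts or fewer in every cntrl library and 6 or fewer in every shCdk8 library in DMSO. Of 5 adipocyte genes 4 were under 1 CPM in every DMSO library, and the sum, which came from Fabp4, was 626 to 701 CPM in cntrl, 18.3 to 21.1 CPM in shCdk8-1 and 19.7 to 20.8 CPM in shCdk8-2 libraries. The 6 fibroblast genes summed to 548 to 556, 397 to 448 and 418 to 448 CPM in the same order, a sum made almost wholly of Pdgfra and Pdgfrb, which fell, while Col1a1 went the other way (0.441 to 0.976, 15.1 to 18.4 and 9.26 to 10.7 CPM). The 4 endothelial genes summed to 4.95 to 5.61, 13.8 to 15.4 and 6.43 to 6.92 CPM, and here too the genes went opposite ways, Pecam1 at 0.185 to 0.379, 13.3 to 14.9 and 5.64 to 6.09 CPM and Cdh5 at 4.12 to 4.74, 0.155 to 0.235 and 0.562 to 0.658 CPM. All 6 leukocyte genes were under 1 CPM throughout. Of the 3 receptors that define the triple-negative type, Pgr was under 1 CPM, and the sum of Esr1, Pgr and Erbb2 was 78.0 to 79.4, 47.6 to 52.5 and 46.9 to 49.7 CPM. This sum hides unequal changes. Of these 3 genes 2 were tested and both fell, with log2 fold changes of -4.22 and -0.163 with shCdk8-1. With shCdk8-2 the log2 fold changes were -4.57 and -0.235. The part of these differences in the results below was not tested. In bulk RNA, fewer cells of a type and less RNA per cell cannot be told apart.

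The first question was whether the pathway moved with either hairpin. In shCdk8-1 cells 32 of the 38 genes rose and 1, Insig2, fell, where 30.0% of all 12590 genes rose and 30.6% fell. In shCdk8-2 cells 24 rose and 4 fell, where 28.7% of all genes rose and 29.5% fell. The median log2 fold change of the members was 0.55 with shCdk8-1 and 0.28 with shCdk8-2, beside 0.00 for all genes in both. More than 2-fold higher were 7 members in shCdk8-1 cells (Acat2, Lss, Cyp51, Tm7sf2, Abca1, Acss2 and Fads2; 5.01% of all genes) and 2 in shCdk8-2 cells (Tm7sf2 and Abca1; 4.75% of all genes). Abca1 passed the filter only where it is high. Without it, 31 of 37 genes rose with shCdk8-1 and 23 of 37 with shCdk8-2, and 6 and 1 rose more than 2-fold. With shCdk8-1 8 genes (Srebf1, Srebf2, Insig1, Msmo1, Sc5d, Acaca, Fasn and Fads1) rose that did not pass the test with shCdk8-2. Both comparisons share the cntrl libraries in DMSO, as does the SnxB comparison below.

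**Figure D1:**
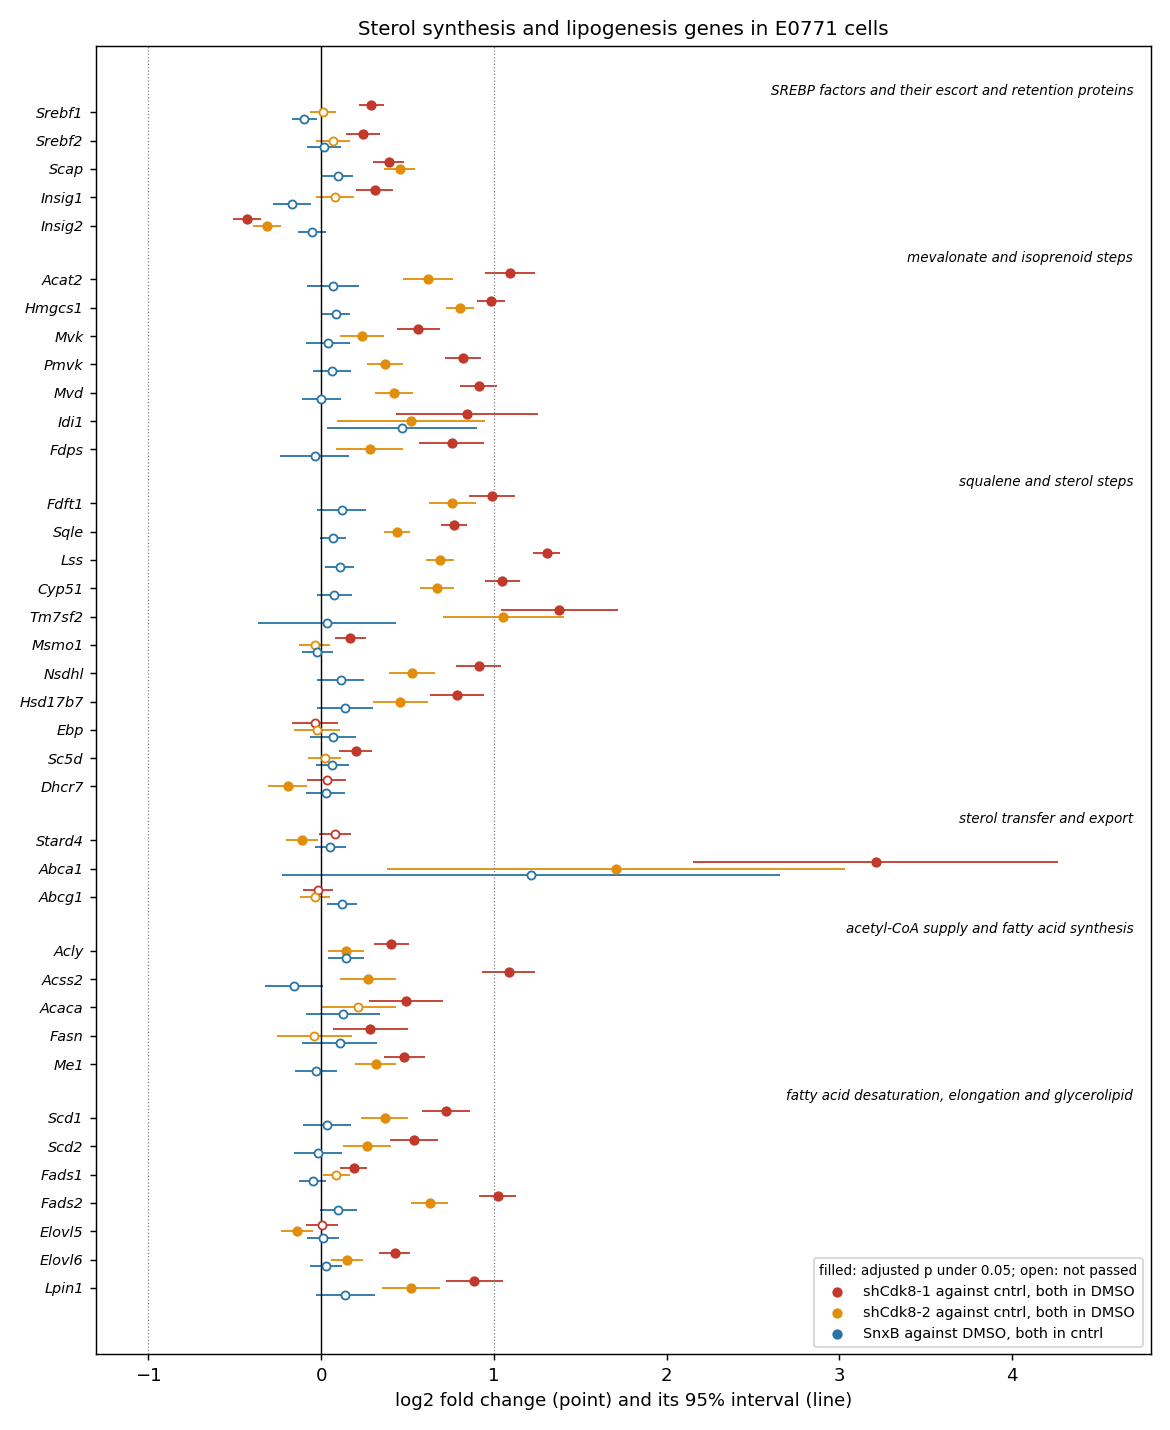
Log2 fold change (points) with 95% interval (lines) of each of the 38 genes, grouped by role, for shCdk8-1 and shCdk8-2 against cntrl in DMSO and for SnxB against DMSO in cntrl cells. Filled points passed an adjusted p of 0.05: 33 with shCdk8-1, 28 with shCdk8-2 and 0 with SnxB, and dotted lines mark a 2-fold change.

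**Figure D2:**
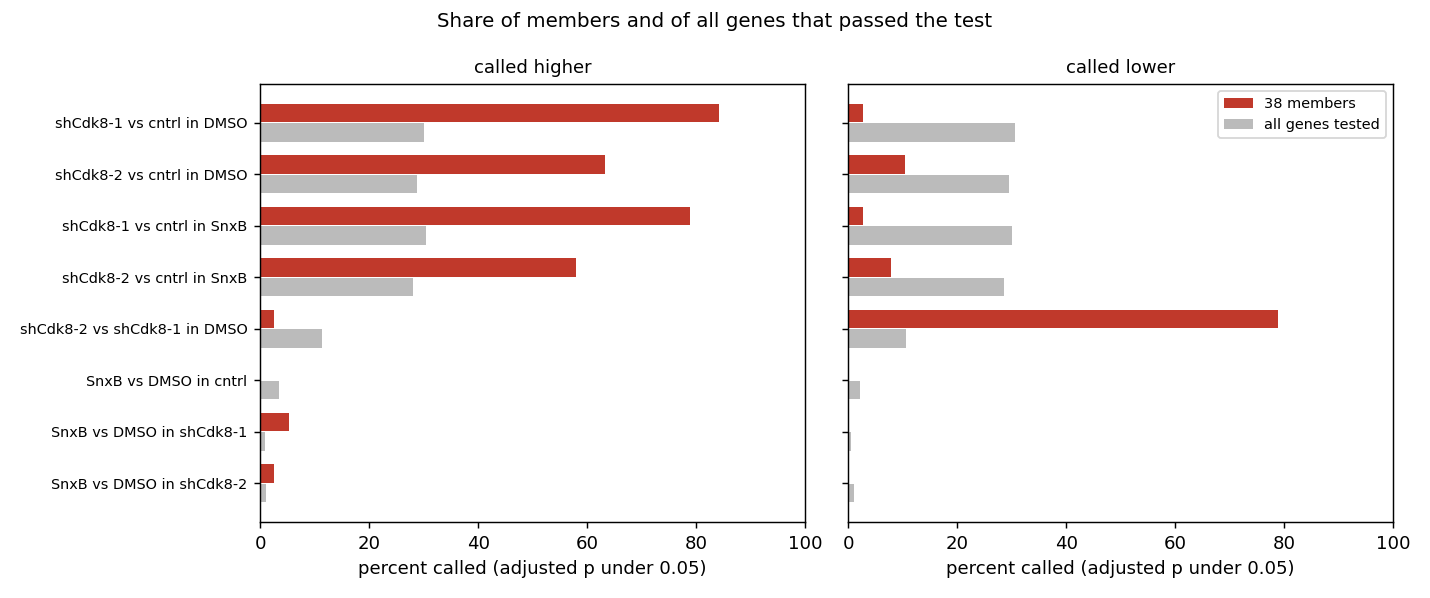
Percent of the 38 genes (red) and of all genes tested (grey) called higher (left) or lower (right) in 8 comparisons. Against cntrl in DMSO, 84.2% of members rose with shCdk8-1 and 63.2% with shCdk8-2, and 78.9% were lower in shCdk8-2 than in shCdk8-1 cells.

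As a sum, the transcription factors with their escort and retention proteins changed less than the enzymes of the mevalonate block. The sums were 791 ± 14.4 CPM (SD, n = 3) in cntrl, 938 ± 8.99 CPM in shCdk8-1 and 839 ± 19.6 CPM in shCdk8-2 cells in DMSO. Gene by gene this did not hold in shCdk8-2 cells, where Scap rose by 0.46 and Mvk of the mevalonate block by 0.24. Srebf1 (ENSMUSG00000020538.15, chr11:60199089-60222581) stood in DMSO at 241, 238 and 244 CPM in cntrl cells, 300.5, 293 and 293 CPM in shCdk8-1 cells and 241, 249 and 242 CPM in shCdk8-2 cells. In SnxB it stood at 233, 214 and 229 CPM in cntrl cells, 274, 271 and 269.7 CPM in shCdk8-1 cells and 229.6, 215 and 228 CPM in shCdk8-2 cells. In DMSO the shCdk8-1 libraries lay above all the others, while shCdk8-2 and cntrl libraries overlapped. Srebf1 rose with shCdk8-1 by 0.29 (SE 0.0343, adjusted p 1.94e-06), and the estimate with shCdk8-2 was 0.01 (SE 0.0344, adjusted p 0.806). These counts do not separate its alternative transcripts. Srebf2 (ENSMUSG00000022463.7, chr15:82147266-82205376) stood in DMSO at 355, 336 and 342 CPM in cntrl cells, 394, 420.2 and 411 CPM in shCdk8-1 cells and 351, 371 and 366 CPM in shCdk8-2 cells. In SnxB its libraries read 374, 327 and 345 CPM in cntrl cells, 388, 359 and 389 CPM in shCdk8-1 cells and 359, 337 and 335 CPM in shCdk8-2 cells. The order was the one seen for Srebf1, with shCdk8-1 libraries above the rest in DMSO. The rise with shCdk8-1 was 0.24 (SE 0.0461, adjusted p 2.50e-04), and with shCdk8-2 the estimate was 0.07 (SE 0.0461, adjusted p 0.218).

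Scap (ENSMUSG00000032485.14, chr9:110333288-110384950), the escort of both SREBPs, read 84.0, 86.3 and 91.8 CPM in cntrl cells, 114, 119.6 and 111 CPM in shCdk8-1 cells and 118, 124 and 119.5 CPM in shCdk8-2 cells in DMSO. With SnxB it read 96.2, 90.1 and 93.9 CPM in cntrl cells, 112, 113 and 115 CPM in shCdk8-1 cells and 121, 118 and 113 CPM in shCdk8-2 cells. Libraries of both shCdk8 lines lay above those of cntrl cells and overlapped each other. Scap rose by 0.39 (SE 0.0424, adjusted p 7.33e-07) with shCdk8-1 and by 0.46 (SE 0.0422, adjusted p 1.47e-07) with shCdk8-2. Insig1 (ENSMUSG00000045294.11, chr5:28071363-28078662), an INSIG gene that is itself switched on by SREBPs, read 64.3, 59.1 and 65.0 CPM in cntrl cells, 79.9, 73.8 and 79.9 CPM in shCdk8-1 cells and 65.8, 69.9 and 64.6 CPM in shCdk8-2 cells in DMSO. Under SnxB the libraries gave 57.1, 52.9 and 57.5 CPM in cntrl cells, 73.9, 69.7 and 70.1 CPM in shCdk8-1 cells and 55.5, 60.7 and 59.4 CPM in shCdk8-2 cells. It rose with shCdk8-1 (0.31, SE 0.0509, adjusted p 6.59e-05), and the shCdk8-2 libraries overlapped those of cntrl cells (0.08, SE 0.0513, adjusted p 0.185). Insig2 (ENSMUSG00000003721.14, chr1:121304353-121332589), whose product also holds SCAP back, went the other way. Its DMSO libraries read 56.2, 55.0 and 54.1 CPM in cntrl cells, 41.4, 40.6 and 40.9 CPM in shCdk8-1 cells and 44.6, 45.3 and 43.8 CPM in shCdk8-2 cells. The SnxB libraries gave 52.5, 53.4 and 53.6 CPM in cntrl cells, 40.0, 40.7 and 41.7 CPM in shCdk8-1 cells and 43.2, 43.2 and 43.9 CPM in shCdk8-2 cells. In DMSO, cntrl libraries were highest, shCdk8-2 libraries intermediate and shCdk8-1 libraries lowest, with no overlap between lines. Insig2 fell by 0.43 (SE 0.0388, adjusted p 8.94e-08) with shCdk8-1 and by 0.31 (SE 0.0383, adjusted p 3.70e-06) with shCdk8-2, and it was the single member to fall in both lines.

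The mevalonate steps, which build the isoprenoid precursors of sterols from acetyl-CoA, rose as a whole block. All 7 genes of the block rose in both lines, and their summed level was 266 ± 8.39 CPM (SD, n = 3) in cntrl, 504 ± 4.94 CPM in shCdk8-1 and 408 ± 15 CPM in shCdk8-2 cells in DMSO. Acat2 (ENSMUSG00000023832.13, chr17:12942890-12960747), the cytosolic thiolase that starts the route, read 32.3, 28.2 and 34.2 CPM in cntrl cells, 66.5, 71.6 and 64.6 CPM in shCdk8-1 cells and 51.1, 44.8 and 50.3 CPM in shCdk8-2 cells in DMSO. In SnxB it read 33.8, 33.2 and 32.4 CPM in cntrl cells, 74.3, 87.3 and 79.8 CPM in shCdk8-1 cells and 57.8, 57.0 and 59.0 CPM in shCdk8-2 cells. The lines did not overlap in either condition, with shCdk8-1 highest and cntrl lowest. Its rise was 1.09 (SE 0.0680, adjusted p 9.40e-10) with shCdk8-1 and 0.62 (SE 0.0691, adjusted p 1.22e-06) with shCdk8-2. Of the 50-base stretches of the Acat2 transcripts, 39.1% also occur in other genes, chiefly its copy Acat3, so its level is uncertain. Mvd (ENSMUSG00000006517.5, chr8:122433601-122443422), which makes isopentenyl diphosphate, read 26.9, 26.1 and 25.5 CPM in cntrl cells, 50.2, 48.0 and 49.6 CPM in shCdk8-1 cells and 34.5, 35.3 and 35.7 CPM in shCdk8-2 cells in DMSO. The SnxB libraries gave 27.2, 26.6 and 24.7 CPM in cntrl cells, 52.8, 58.0 and 52.3 CPM in shCdk8-1 cells and 35.7, 33.6 and 38.9 CPM in shCdk8-2 cells. Again the lines were ordered shCdk8-1, shCdk8-2 and cntrl, with no overlap in DMSO. Mvd rose by 0.91 (SE 0.0502, adjusted p 2.07e-10) with shCdk8-1 and 0.42 (SE 0.0513, adjusted p 3.25e-06) with shCdk8-2. Hmgcs1, which makes HMG-CoA and whose promoter held the longer sterol element, rose by 0.98 (SE 0.0388) and 0.81 (SE 0.0387), from 125 ± 3.19 CPM in cntrl to 248 ± 3.14 and 220.1 ± 7.37 CPM. The kinases Mvk (0.56 and 0.24) and Pmvk (0.82 and 0.37), the isomerase Idi1 (0.85 and 0.52) and the farnesyl diphosphate synthase Fdps (0.76 and 0.28) followed, each pair of values given for shCdk8-1 and shCdk8-2. Idi1 lost its call in shCdk8-2 cells without cntrl DMSO replicate 1 or 2 or shCdk8-2 DMSO replicate 1 or 2 (adjusted p 0.0728 to 0.144), and with DESeq2 (adjusted p 0.0911). Stretches shared with pseudogenes or other transcripts made up 26.2% of Fdps and 17.7% of Idi1.

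Past farnesyl diphosphate, the route runs through squalene and lanosterol to cholesterol, and the early steps moved more than the last ones. Of 11 genes 9 rose with shCdk8-1, and 7 rose and 1 fell with shCdk8-2. Their sum was 861 ± 34.2 CPM in cntrl, 1294 ± 21.9 CPM in shCdk8-1 and 1046 ± 19.4 CPM in shCdk8-2 cells (n = 3 each). The squalene synthase Fdft1 rose by 0.99 and 0.76 and the squalene epoxidase Sqle by 0.77 and 0.44 in shCdk8-1 and shCdk8-2 cells. Lss (ENSMUSG00000033105.12, chr10:76531588-76557138), the cyclase that makes lanosterol, read 65.9, 65.9 and 63.3 CPM in cntrl cells, 161, 162 and 159.9 CPM in shCdk8-1 cells and 103, 108 and 105 CPM in shCdk8-2 cells in DMSO. With SnxB it read 73.1, 67.5 and 69.5 CPM in cntrl cells, 176, 162 and 168 CPM in shCdk8-1 cells and 110.1, 111 and 108 CPM in shCdk8-2 cells. The lines were far apart beside the spread within each. Lss rose by 1.31 (SE 0.0373, adjusted p 7.09e-14) with shCdk8-1 and 0.69 (SE 0.0377, adjusted p 2.83e-10) with shCdk8-2. Cyp51 (ENSMUSG00000001467.5, chr5:4081145-4104746), the lanosterol demethylase, whose promoter held a single TCACNNCA, read 92.2, 84.1 and 92.1 CPM in cntrl cells, 186, 186 and 184 CPM in shCdk8-1 cells and 148, 138 and 142 CPM in shCdk8-2 cells in DMSO. In SnxB the values were 101, 91.1 and 90.3 CPM in cntrl cells, 190.5, 195 and 193 CPM in shCdk8-1 cells and 143, 142 and 146 CPM in shCdk8-2 cells. It followed the same order without overlap. The rise was 1.05 (SE 0.0469, adjusted p 1.64e-11) and 0.67 (SE 0.0471, adjusted p 5.74e-09). Tm7sf2 (ENSMUSG00000024799.14, chr19:6062821-6068373), a sterol reductase of the next step, was one of the lowest members and had the steepest rise among the enzymes. In DMSO it read 2.90, 2.49 and 2.40 CPM in cntrl cells, 6.77, 5.70 and 7.64 CPM in shCdk8-1 cells and 5.53, 5.16 and 5.48 CPM in shCdk8-2 cells. In SnxB it read 1.91, 2.74 and 3.23 CPM in cntrl cells, 8.17, 7.55 and 8.78 CPM in shCdk8-1 cells and 4.88, 5.29 and 7.27 CPM in shCdk8-2 cells. Each shCdk8 library exceeded each cntrl library. Tm7sf2 rose by 1.38 (SE 0.159, adjusted p 1.50e-06) with shCdk8-1 and 1.06 (SE 0.164, adjusted p 4.24e-05) with shCdk8-2, and 9.87% of its 50-base stretches are shared, mostly with the overlapping gene Vps51.

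The dehydrogenases Nsdhl (0.91 and 0.53) and Hsd17b7 (0.79 and 0.46) of sterol demethylation rose in both lines. Msmo1, the oxidase of the same complex, whose promoter held 2 TCACNNCA matches, moved little: 145 ± 8.37 CPM in cntrl, 164 ± 2.38 CPM in shCdk8-1 (0.17, SE 0.0422, adjusted p 0.00245) and 142 ± 6.26 CPM in shCdk8-2 cells (-0.04, SE 0.0423, adjusted p 0.491). The late enzymes were mixed. The isomerase Ebp did not pass in either line (-0.04 and -0.02), and the desaturase Sc5d rose with shCdk8-1 (0.20) with an estimate of 0.02 with shCdk8-2. Dhcr7, which makes cholesterol from its last precursor, was 80.2 ± 2.42 CPM in cntrl, 82.2 ± 2.20 CPM in shCdk8-1 (0.03, SE 0.0535, adjusted p 0.624) and 70.5 ± 0.877 CPM in shCdk8-2 cells, where it fell (-0.19, SE 0.0539, adjusted p 0.00572).

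**Figure D3:**
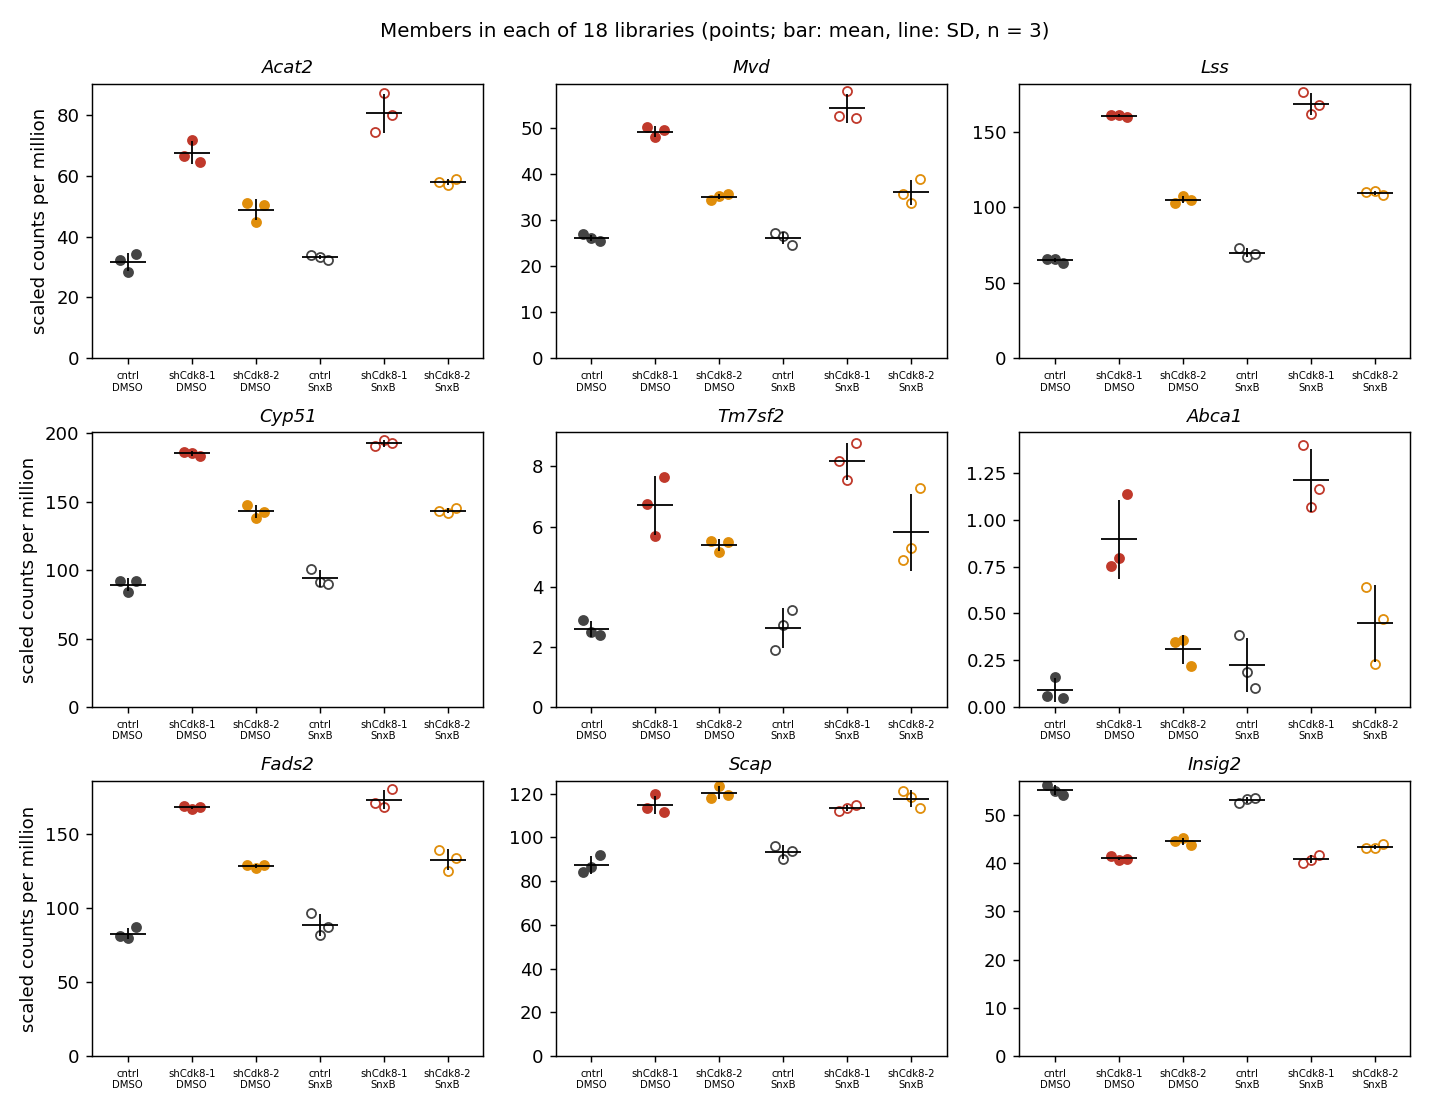
Scaled CPM of 9 genes in each of 18 libraries (filled circles DMSO, open circles SnxB; bar, mean; vertical line, SD; n = 3). For Acat2, Mvd, Lss, Cyp51, Tm7sf2, Abca1 and Fads2 the shCdk8-1 libraries were highest within each condition, for Scap both shCdk8 lines lay above cntrl cells in DMSO, and Insig2 was highest in cntrl cells.

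The genes of sterol transfer and export each went their own way, with sums of 321 ± 11.3, 329 ± 4.17 and 307 ± 0.705 CPM in cntrl, shCdk8-1 and shCdk8-2 cells in DMSO. Abca1 (ENSMUSG00000015243.4, chr4:53030787-53159895), the pump that loads cholesterol onto apolipoprotein particles and a target of LXR, was nearly silent. In DMSO it had 1, 3 and 1 counts in cntrl, 16, 14 and 22 counts in shCdk8-1 and 8, 7 and 4 counts in shCdk8-2 libraries, which is 0.0616, 0.163 and 0.0490 CPM in cntrl cells, 0.752, 0.798 and 1.14 CPM in shCdk8-1 cells and 0.348, 0.357 and 0.219 CPM in shCdk8-2 cells. In SnxB the libraries gave 0.383, 0.186 and 0.103 CPM in cntrl cells, 1.40, 1.07 and 1.16 CPM in shCdk8-1 cells and 0.641, 0.228 and 0.473 CPM in shCdk8-2 cells. All shCdk8-1 libraries lay above the rest in DMSO, and all shCdk8-2 libraries above cntrl. Over summed counts and library sizes the ratio to cntrl was 9.85 (95% counting interval 3.96 to 31.6) in shCdk8-1 and 3.44 (95% counting interval 1.24 to 11.8) in shCdk8-2 cells. Since Abca1 passed the filter through the shCdk8-1 libraries alone, its difference there is given with no test. The fitted fold changes (3.21 and 1.71) depend on the prior count added to such low counts. The call in shCdk8-2 cells (adjusted p 0.0278) was lost without cntrl DMSO replicate 1 or 3 or shCdk8-2 DMSO replicate 1 or 2 (adjusted p 0.0695 to 0.104), and with DESeq2 (adjusted p 0.0603). The sister pump Abcg1 did not pass in either line (-0.02 and -0.04). Stard4, which carries cholesterol between membranes, had an estimate of 0.08 with shCdk8-1 and fell with shCdk8-2 (-0.11, SE 0.0429, adjusted p 0.0349). That call was lost without cntrl DMSO replicate 1 or 3, shCdk8-1 DMSO replicate 1, shCdk8-2 DMSO replicate 1 or 2 or cntrl SnxB replicate 2 or 3 (adjusted p 0.0523 to 0.216), and its cntrl and shCdk8-2 libraries overlapped.

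The genes that supply acetyl-CoA and build fatty acids rose in shCdk8-1 cells (5 of 5) and in part in shCdk8-2 cells (3 of 5), with sums of 1127 ± 8.61, 1433 ± 202 and 1159 ± 35.6 CPM in cntrl, shCdk8-1 and shCdk8-2 cells. Acss2 (ENSMUSG00000027605.18, chr2:155517948-155585724), which makes acetyl-CoA from acetate, read 15.3, 15.5 and 17.5 CPM in cntrl cells, 35.4, 32.8 and 34.6 CPM in shCdk8-1 cells and 20.5, 18.7 and 19.5 CPM in shCdk8-2 cells in DMSO. In SnxB it read 15.1, 13 and 15.4 CPM in cntrl cells, 45.1, 42.9 and 44.5 CPM in shCdk8-1 cells and 26.5, 23.3 and 25.5 CPM in shCdk8-2 cells. In DMSO shCdk8-1 libraries were highest and shCdk8-2 libraries intermediate, with no overlap between lines, and in both shCdk8 lines the SnxB libraries lay above the DMSO libraries. Acss2 rose by 1.08 (SE 0.0731, adjusted p 2.52e-09) with shCdk8-1 and by 0.27 (SE 0.0766, adjusted p 0.00618) with shCdk8-2. Acly, which makes acetyl-CoA from citrate, rose by 0.41 and 0.14, the latter call being lost without cntrl DMSO replicate 2 or shCdk8-2 DMSO replicate 2 (adjusted p 0.0641 to 0.0662). Acaca, the carboxylase that commits acetyl-CoA to fatty acids, rose with shCdk8-1 (0.49, SE 0.10, adjusted p 4.72e-04), with an estimate of 0.22 (SE 0.101, adjusted p 0.0792) with shCdk8-2, and 30.4% of its stretches occur in other transcripts. Fasn, the fatty acid synthase, read 763, 772 and 772 CPM in cntrl cells, 788, 1132 and 893 CPM in shCdk8-1 cells and 719, 782 and 753 CPM in shCdk8-2 cells in DMSO. Replicate 2 stood apart within shCdk8-1. The rise of 0.28 (SE 0.102, adjusted p 0.0243) was lost without cntrl DMSO replicate 1, 2 or 3 or shCdk8-1 DMSO replicate 2 (adjusted p 0.0526 to 0.175), the estimate without shCdk8-1 DMSO replicate 2 being 0.12, and with DESeq2 (adjusted p 0.0624). With shCdk8-2 the estimate was -0.04 (SE 0.102, adjusted p 0.762). Me1, the malic enzyme that supplies NADPH, rose in both lines (0.48 and 0.32), with 22.9% of its stretches shared.

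Among the desaturases, elongases and the phosphatidate phosphatase Lpin1, 6 of 7 rose with shCdk8-1, and 5 rose and 1 fell with shCdk8-2. Their sum, mostly Scd2, was 2962 ± 166, 4254 ± 139 and 3532 ± 32.8 CPM in cntrl, shCdk8-1 and shCdk8-2 cells. Fads2 (ENSMUSG00000024665.7, chr19:10064164-10101503), the desaturase at the entry to polyunsaturated fatty acid synthesis, read 80.9, 79.8 and 87.2 CPM in cntrl cells, 169, 167 and 168 CPM in shCdk8-1 cells and 129, 127 and 129 CPM in shCdk8-2 cells in DMSO. In SnxB the values were 96.8, 82.0 and 87.3 CPM in cntrl cells, 171, 168 and 180.3 CPM in shCdk8-1 cells and 139, 125 and 133 CPM in shCdk8-2 cells. No line overlapped another in DMSO. Fads2 rose by 1.02 (SE 0.0496, adjusted p 4.60e-11) with shCdk8-1 and 0.63 (SE 0.0499, adjusted p 2.49e-08) with shCdk8-2, while its neighbour Fads1 rose by 0.19 (SE 0.0367, adjusted p 3.09e-04) with shCdk8-1 and had an estimate of 0.09 (SE 0.0367, adjusted p 0.0549) with shCdk8-2. The stearoyl-CoA desaturases Scd1 (0.72 and 0.37) and Scd2 (0.54 and 0.27) and Lpin1 (0.89 and 0.52) rose in both lines. Of the elongases, Elovl6 rose in both (0.42 and 0.15). Elovl5 had an estimate of 0.00 with shCdk8-1 and fell with shCdk8-2 (-0.14, SE 0.0429, adjusted p 0.0117), a call lost without cntrl DMSO replicate 1 or 3 or shCdk8-2 DMSO replicate 2 (adjusted p 0.0528 to 0.0882).

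Per kilobase of exon, the members spanned a wide range in cntrl cells in DMSO. Highest was Scd2 at 338 ± 21.7 CPM per kb (SD, n = 3), followed by Scd1 (77.0 ± 4.83), Elovl5 (73.1 ± 4.18), Fasn (70.3 ± 0.486) and Srebf2 (69.0 ± 1.97). Lowest were Acss2 (1.58 ± 0.120), Tm7sf2 (0.745 ± 0.0754), Idi1 (0.397 ± 0.117) and Abca1 (0.00879 ± 0.00601). Of the 37 neighbouring pairs in this order, 16 overlapped between libraries, Scd1 and Elovl5 among them.

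**Figure D4:**
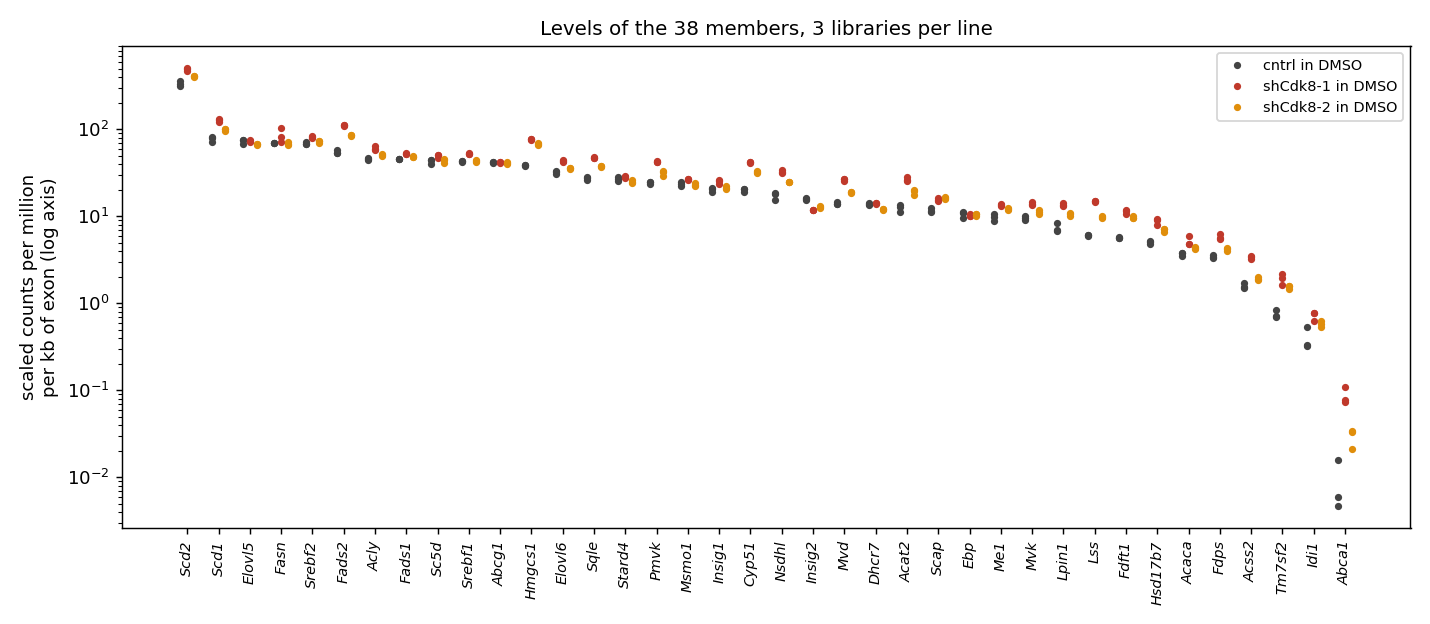
Scaled CPM per kb of exon (log axis) of the 38 genes in each DMSO library, ordered by the cntrl mean, with 3 points per line. Scd2 lies highest and Abca1 lowest, and the shCdk8-1 and shCdk8-2 points lie mostly above those of cntrl cells.

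Set against each other, the hairpin lines differed in the size of the change. In DMSO 30 of the 38 genes were lower in shCdk8-2 than in shCdk8-1 cells and 1, Insig2, was higher, where 10.6% of all genes were lower and 11.3% higher. The 30 include Abca1, which passed the filter through the shCdk8-1 libraries alone, so its difference is no test. The median difference of the members was -0.28 on the log2 scale, beside 0.00 for all genes. The differences were -0.81 (SE 0.0706) for Acss2, -0.62 (SE 0.0359) for Lss, -0.49 (SE 0.0484) for Mvd and -0.47 (SE 0.0648) for Acat2. Not passed were Scap (0.06), Idi1, Tm7sf2 (-0.32), Ebp, Abcg1, Acaca and Fads1. Whichever 1 library was left out, 25 of the 31 calls were kept. Insig2 was lost without cntrl DMSO replicate 2, shCdk8-1 DMSO replicate 1, 2 or 3 or shCdk8-2 DMSO replicate 1, 2 or 3 (adjusted p 0.0523 to 0.132). Me1 was lost without cntrl DMSO replicate 2, shCdk8-1 DMSO replicate 1, 2 or 3 or shCdk8-2 DMSO replicate 1, 2 or 3 (adjusted p 0.0590 to 0.124), and Elovl5 without shCdk8-1 DMSO replicate 1 or 2 or shCdk8-2 DMSO replicate 1, 2 or 3 (adjusted p 0.0567 to 0.110). Fasn was lost without shCdk8-1 DMSO replicate 2 or shCdk8-2 DMSO replicate 1, 2 or 3 (adjusted p 0.0554 to 0.164), Srebf2 without shCdk8-2 DMSO replicate 1 (adjusted p 0.0767) and Sc5d without shCdk8-2 DMSO replicate 2 (adjusted p 0.0558). The level of Cdk8 itself was higher in shCdk8-2 than in shCdk8-1 cells (0.85, SE 0.0666, adjusted p 3.07e-07, means 38.9 ± 0.376 and 21.4 ± 2.44 CPM, against 56.1 ± 2.13 CPM in cntrl).

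The SnxB comparison asks whether inhibiting the kinase moved the same pathway. In cntrl cells, 48 hours of 1 µM SnxB changed none of the 38 genes by edgeR's adjusted p, where 5.53% of all genes changed, and the median of the members was 0.06 beside 0.01 for all genes. DESeq2 also called 0, leaving out cntrl SnxB replicate 3 gave 1 call, and 8 of the 38 members had an unadjusted p under 0.05, near the 18.5% of all genes that did. The 95% interval of the SnxB effect lay within 1.5-fold either way for 36 of the 38 genes in each of the 3 lines, the exceptions being Idi1 and Abca1. Lss, for instance, moved by 0.11 (95% interval 0.03 to 0.19), and Cyp51 by 0.08 (-0.03 to 0.18). Abca1 had 13 summed counts in SnxB against 5 in DMSO, a ratio of 2.41 (95% counting interval 0.807 to 8.65).

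The shCdk8 lines in DMSO were also compared directly with SnxB-treated cntrl cells, that is, knockdown against inhibition of the kinase. With shCdk8-1 30 members were higher than in SnxB-treated cntrl cells (29.4% of all genes) and 2, Insig2 and Abcg1, were lower (30.7%). With shCdk8-2 24 were higher (28.3%) and 5 were lower (29.4%), namely Insig2, Dhcr7, Stard4, Abcg1 and Elovl5. The 30 include Abca1, which passed the filter through the shCdk8-1 libraries alone and so gives no test here. Median differences were 0.52 and 0.30. Lss was higher by 1.20 (SE 0.0369) and 0.58 (SE 0.0373), and Scd1 by 0.69 (SE 0.0649) and 0.33 (SE 0.0648).

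When all 3 lines were treated with SnxB, the difference between lines was again present. Under SnxB 30 members were higher and 1, Insig2, was lower in shCdk8-1 than in cntrl cells, where 30.5% of all 12772 genes were higher and 30.1% lower. In shCdk8-2 cells 22 were higher (28.1%) and 3, Insig2, Dhcr7 and Elovl5, were lower (28.6%), the call for Elovl5 being lost without shCdk8-1 DMSO replicate 1, shCdk8-2 DMSO replicate 2 or 3, cntrl SnxB replicate 1 or 3, shCdk8-1 SnxB replicate 1 or shCdk8-2 SnxB replicate 2 or 3 (adjusted p 0.0502 to 0.172). Acss2 differed by 1.61 (SE 0.0708) and 0.80 (SE 0.0739), Tm7sf2 by 1.63 (SE 0.164) and 1.13 (SE 0.174), and Mvd by 1.05 (SE 0.0560) and 0.46 (SE 0.0579).

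Adding SnxB to the shCdk8 lines moved few members past the adjusted threshold. The counts of 2 and 1 calls became 1 to 5 and 0 to 2 when 1 library was left out. More members had an unadjusted p under 0.05 in edgeR's test. They were 15 of the 38 in shCdk8-1 cells, beside 1846 of all 12772 genes. In shCdk8-2 cells they were 8 of the 38, beside 1566 of all 12772 genes. In shCdk8-1 cells Acss2 (0.37, SE 0.0648, adjusted p 0.00368) and Pmvk (0.22, SE 0.0514, adjusted p 0.0369) rose, where 0.916% of all genes rose, and none fell. Pmvk was lost without cntrl DMSO replicate 1 or 2, shCdk8-1 DMSO replicate 1, 2 or 3, shCdk8-2 DMSO replicate 1 or shCdk8-1 SnxB replicate 2 or 3 (adjusted p 0.0529 to 0.199). In shCdk8-2 cells Acss2 alone rose (0.36, SE 0.0712, adjusted p 0.00762), where 0.987% of all genes rose, and this call was lost without shCdk8-2 SnxB replicate 1 (adjusted p 0.0556). In cntrl cells the same estimate was -0.16 (SE 0.0797, adjusted p 0.317), with overlapping libraries. The test of the difference between the SnxB effects gave 0.52 (SE 0.101, adjusted p 0.0264) for shCdk8-1 against cntrl, the 1 member passing, where 0.305% of all genes passed. It was lost without cntrl DMSO replicate 2 or 3, shCdk8-1 DMSO replicate 2 or 3, cntrl SnxB replicate 2 or shCdk8-1 SnxB replicate 3 (adjusted p 0.0587 to 0.0960). For shCdk8-2 against cntrl the difference was 0.52 (SE 0.105, adjusted p 0.0971), and none of the 38 genes passed with edgeR (1 by DESeq2), where 0.0548% of all genes did. At an unadjusted p under 0.05 were 2 of the 38, near the 5.86% of all genes. Estimates for Srebf1 and Insig1 were negative in each line. Under SnxB, Srebf1 moved by -0.10, -0.12 and -0.12 and Insig1 by -0.17, -0.13 and -0.19 in cntrl, shCdk8-1 and shCdk8-2 cells, none past the adjusted threshold.

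**Figure D5:**
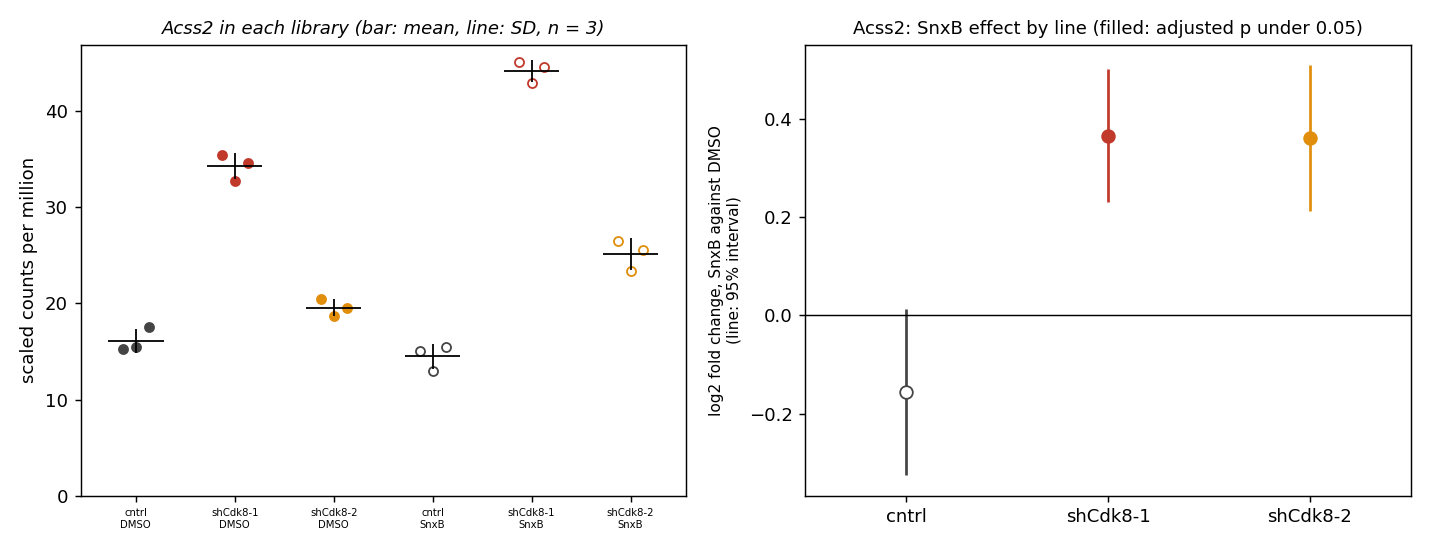
Left, Acss2 in scaled CPM in each of 18 libraries (filled DMSO, open SnxB; bar, mean; line, SD; n = 3). Right, its log2 fold change with SnxB in each line with 95% interval (filled, adjusted p under 0.05): -0.16 in cntrl, 0.37 in shCdk8-1 and 0.36 in shCdk8-2 cells.

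Other genes of these pathways, 59 found by name and 50 with enough counts to test, went in both directions. With shCdk8-1 16 rose and 21 fell, where 30.0% of all genes rose and 30.6% fell. With shCdk8-2 15 rose and 19 fell, where 28.7% of all genes rose and 29.5% fell. The counts by list that follow stand beside the same shares. Further sterol synthesis enzymes (2 rose and 1 fell of 5 with shCdk8-1, 2 and 2 with shCdk8-2) and genes of SREBP processing, sterol sensing and esterification (2 rose and 8 fell of 14, then 3 and 7) were mixed or mostly lower. Genes of sterol uptake and transport (5 rose and 4 fell of 11, then 4 and 4) and of fatty acid and glycerolipid synthesis (7 and 8 of 20, then 6 and 6) went both ways. More than 2-fold higher in both lines were, among others, Nr1h3, which encodes LXR alpha (1.34 and 1.20), and Acacb, the mitochondrial acetyl-CoA carboxylase (2.71 and 1.43). Thrsp, a lipogenic gene, had 3, 1 and 1 counts in cntrl DMSO libraries, 79, 67 and 75 in shCdk8-1 and 81, 91 and 52 in shCdk8-2 libraries, ratios of 41.8 (95% counting interval 17.7 to 130.1) and 40.6 (95% counting interval 17.1 to 126). More than 2-fold lower in both were the lysosomal cholesterol exporter Npc1 (-1.19 and -1.10) and the elongase Elovl7 (-1.15 and -1.45). The cholesterol esterification enzyme Soat2 had 14, 18 and 10 counts in cntrl and no more than 6 in any shCdk8 library in DMSO. Soat2 passed the filter through cntrl libraries alone and Thrsp through shCdk8 libraries alone, so their differences are given with no test. The counts of genes that rose or fell above include both. With SnxB in cntrl cells 3 of the 50 rose, among them, named with their values known, Scarb1 (0.26) and Lpin2 (0.16), where 3.42% of all genes rose. None fell (2.10% of all genes).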

How the data were processed

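RNA-seq was performed as 50-base single-end reads on 18 libraries. Before the files were deposited, the authors trimmed reads (Trimmomatic), aligned them to GRCm38 (STAR) and counted reads on exons per gene, strand-specifically, with featureCounts 1.5.1, per the file headers, so the values are raw counts. Reads that fit several genes or places were not counted, which lowers genes with copies. The file headers of shCdk8-2 libraries carry replicate numbers other than those of the labels, and the labels were used. Members and gene lists were chosen with earlier results of these data known. Genes were kept by edgeR 4.0.16 filterByExpr (minimum count 10, minimum total 15), scaled by TMM and tested by quasi-likelihood, with p-values adjusted over all genes. DMSO groups and cntrl in SnxB were fitted together (12 libraries, 12590 genes), and contrasts that involve the shCdk8 lines in SnxB on all 18 (12772 genes). The fits were also run on simulated counts, to check the code and the direction of contrasts. The simulated spread was the same for all genes, so this run does not show how the tests behave on these data. Values in every library are given for the SREBP factors, their partners and members changed more than 2-fold in any comparison, and other pathway genes are named where changed more than 2-fold with both hairpins, except for results not reported here. Intervals on counts cover counting error only. No 2 libraries held identical counts, and replicates differed by more than sampling noise (chi-square per degree of freedom 1.62 to 17.5). Alternatives were DESeq2 1.42.0, other scalings, filters, libraries, a replicate block and a 2-fold threshold.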

Additional observations from a re-analysis of the deposited data

Results flagged for a closer look

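The effect of SnxB on Acss2 differed between shCdk8-1 and cntrl cells by 0.52 on the log2 scale (edgeR interaction, adjusted p 0.0264), with a rise of 0.37 in shCdk8-1 cells, from libraries at 32.8 to 35.4 CPM to libraries at 42.9 to 45.1 CPM, and an estimate of -0.16 in cntrl cells. It is given here as a difference between lines in the response to the same treatment, and 6 of 18 leave-outs of a single library lost the call. Groups of 3 libraries were not searched for a library far from the others.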

How the results depend on the processing

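Of 1722 gene-level values recomputed under settings that leave no library out, 1691 kept their direction and their side of the threshold, 27 lost the call, 4 gained one and 0 reversed, and of 3324 recomputed with 1 library left out 88 lost the call and 0 reversed. No rescaling moved the median of all genes by more than 0.063 on the log2 scale. Counts of members called, of 38, moved by more than 1.5 times as follows, and where no construction is named the cause was not tested. Asking for a change above 2-fold, then testing against 2-fold with glmTreat, both stricter by construction, left 7 and 3 (shCdk8-1 in DMSO), 2 and 0 (shCdk8-2), 1 and 0 (between the hairpins), 5 and 3, then 1 and 0 (shCdk8-1 and shCdk8-2 against SnxB-treated cntrl), 7 and 5, then 1 and 0 (the same lines, all in SnxB), and 0 and 0 for SnxB in either shCdk8 line and for the shCdk8-1 interaction. SnxB in cntrl cells gave 2 with library totals and 2 with no filter. SnxB in shCdk8-1 cells gave 4 with DESeq2, 4 with library totals, 6 with no filter, 4 with the CPM filter, 1 with fewer libraries in the fit and 1 with the replicate block. SnxB in shCdk8-2 cells gave 2 with DESeq2, totals, no filter or the CPM filter and 4 with fewer libraries. The shCdk8-1 interaction gave 3 with no filter and 0 with fewer libraries, and the shCdk8-2 interaction gave 1 with DESeq2, no filter or the replicate block. With 1 library left out the counts ran from 32 to 33 (shCdk8-1), 23 to 30 (shCdk8-2), 26 to 33 (between the hairpins), 0 to 1 (SnxB in cntrl), 1 to 5 and 0 to 2 (SnxB in shCdk8-1 and shCdk8-2), 0 to 1 and 0 to 0 (interactions), 32 to 33 and 27 to 31 (against SnxB-treated cntrl) and 30 to 34 and 23 to 27 (all in SnxB). In no pair of groups did all 3 same-numbered correlations exceed 0.1, a cut-off that cannot exclude pairing by replicate number. Their mean ran from -0.0951 (shCdk8-1 in DMSO with shCdk8-2 in SnxB) to 0.145 (cntrl with shCdk8-2, both in SnxB). In the latter pair of groups the 3 values were 0.247, 0.0582 and 0.131. The shCdk8-2 file headers also carry replicate numbers other than the labels used. The block otherwise kept every count within 1.5 times. Abca1, at 1 to 3 counts in cntrl DMSO libraries, is at the limit of this depth.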
